A study of Mus musculus with 4 samples.

Results

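The G2 and mitosis genes are 50 genes listed by symbol and read from the 4 count matrices of a single-cell survey of mouse vaginal epithelium, out of 25071 genes in all. Every listed gene had at least 1 molecule in some library; Bub1 and Cdc25c have no entry in the OVX1 matrix and were counted as 0 there. The survey used Drop-seq, a droplet method that tags each captured transcript with a unique molecular identifier (UMI), on vaginal epithelium of C57BL/6 mice. There were 2 libraries from ovary-intact mice, called WT, and 2 from mice whose ovaries had been surgically removed, called OVX. Each library was a pool of 5 mice, and the series text speaks of pools run in duplicate, so the spread between libraries of a group, and every p-value here, may be technical only. Ages, the time between surgery and sampling, and the day of the oestrous cycle of the intact mice were not given in the sources used here.

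A dividing cell passes from DNA replication (S phase) through a gap phase, G2, into mitosis. Entry is driven by the kinase Cdk1 with its cyclin partners, chromosomes are then condensed and attached by kinetochores to a spindle of microtubules, and the anaphase-promoting complex destroys cyclins and other proteins so that the chromosomes part and the cell divides. In a stratified epithelium such as that of the vagina, division belongs mainly to the basal layers, while suprabasal cells differentiate and are shed, and oestrogen from the ovaries is the classical stimulus for growth of the vaginal lining. Levels are in CPM, the UMIs of a gene among 1000000 UMIs of a class of cells, summed in each library. Paired values are given for WT1 and then WT2, and for OVX1 and then OVX2. Because each transcript is counted once at its end, CPM compares genes without a correction for length.

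Total UMIs ranged from 991112 in OVX1 to 5845107 in WT1, and 8360 of 8446 cells kept were epithelial. The median cell held 1597 and 799 UMIs in WT1 and WT2, and 435 and 738 in OVX1 and OVX2. Mitochondrial transcripts took a median of 4.00% and 3.85% of a cell's UMIs in the WT libraries and 8.97% and 9.69% in the OVX libraries, and the nuclear RNA Malat1 took 0.336% and 0.465% against 2.50% and 1.81%. These shares and the depth move with ovariectomy in every comparison of OVX with WT below, and their part in the results was not tested. Basal-like clusters carried raised levels of 7 to 9 of 12 basal markers in WT and 4 to 5 in OVX, suprabasal-like clusters of WT 5 to 9 of 12, and luminal-like clusters, which were found in OVX only, 5 to 10 of 10. The luminal-like clusters also had suprabasal markers raised, 3 of 12 in OVX1 and 5 and 2 of 12 in OVX2, with Krt13 in each. With at most 10% mitochondrial UMIs 266 OVX2 cells were named suprabasal-like, and at the higher clustering resolution tried 164. The luminal-like name and the lack of suprabasal-like cells in OVX2 therefore depend on the settings. Between 10 and 22 cell barcodes of each library also occurred in another library.

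The promoters of the genes are shown first, because genes of this phase are known to share 2 short elements. These are the CHR element (cell cycle genes homology region), which is bound by the DREAM and MuvB complexes, and the box bound by the factor NF-Y. RefSeq promoters on GRCm38.p6, 250 bases before to 50 after the start site, were at hand for 43 of the 50 genes, as 48 promoters. TTTGAA or TTCGAA, the letters searched for the CHR on both strands, stood in 36 of 48 promoters (75%), against 19.1% of the 32803 promoters of other genes. CCAAT, the NF-Y box, searched on both strands, stood in 38 (79.2%) against 37.3%. At least 2 copies of the NF-Y box were in 58.3% against 11.6%, and both elements were in 31 promoters (64.6%) against 7.44%. The remaining genes, Aurkb, Pbk, Dlgap5, Smc4, Tpx2, Cdc25c and Cdca2, are named only.

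The stretches below, 120 bases each, lie upstream of the start site and are written 5′ to 3′ on the strand of the gene, with capitals for these letters or their reverse complement. Top2a, Cdk1 and Cdc20, which carry both elements in the stretch, come from genes that fell after ovariectomy, as do Ccnb2, with 3 NF-Y boxes and no CHR letters in the stretch, and Nusap1, with neither.
Top2a, DNA topoisomerase II alpha, chr11:99024190-99024309, minus strand: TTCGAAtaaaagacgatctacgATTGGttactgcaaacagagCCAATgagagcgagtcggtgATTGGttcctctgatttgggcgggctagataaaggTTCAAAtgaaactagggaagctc
Cdk1, the mitotic kinase, chr10:69352939-69353058, minus strand: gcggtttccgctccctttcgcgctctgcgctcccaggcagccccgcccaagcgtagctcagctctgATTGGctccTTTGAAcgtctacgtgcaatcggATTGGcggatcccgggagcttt
Cdc20, an activator of the anaphase-promoting complex, chr4:118437353-118437472, minus strand: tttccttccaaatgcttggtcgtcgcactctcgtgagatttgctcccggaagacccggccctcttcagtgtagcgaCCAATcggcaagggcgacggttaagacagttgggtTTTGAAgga
Ccnb2, cyclin B2, chr9:70421555-70421674, minus strand: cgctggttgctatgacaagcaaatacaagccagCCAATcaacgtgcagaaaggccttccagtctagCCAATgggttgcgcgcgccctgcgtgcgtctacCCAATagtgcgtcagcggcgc
Nusap1, a spindle protein, chr2:119618178-119618297, plus strand: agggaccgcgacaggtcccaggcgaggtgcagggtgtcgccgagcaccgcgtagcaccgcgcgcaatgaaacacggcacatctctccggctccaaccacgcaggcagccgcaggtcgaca

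The next 3 stretches come from genes whose difference between OVX and WT did not pass the test, and they hold the same letters. Ckap5 and Hmgb2 carry both elements, and Cks2 carries 2 NF-Y boxes.
Ckap5, a microtubule polymerase, chr2:91526642-91526761, plus strand: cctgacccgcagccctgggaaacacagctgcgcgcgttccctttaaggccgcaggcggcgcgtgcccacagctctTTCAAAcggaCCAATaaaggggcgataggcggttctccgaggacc
Hmgb2, a chromatin protein, chr8:57511723-57511842, plus strand: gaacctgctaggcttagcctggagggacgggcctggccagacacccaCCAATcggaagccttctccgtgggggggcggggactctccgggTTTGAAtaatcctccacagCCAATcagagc
Cks2, a Cdk1-binding subunit, chr13:51645112-51645231, plus strand: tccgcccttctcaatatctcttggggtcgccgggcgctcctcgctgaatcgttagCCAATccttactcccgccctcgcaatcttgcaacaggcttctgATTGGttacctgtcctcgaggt
Over all 48 promoters the 49 matches to the CHR letters had a median position of -18 from the start site, with 34 of them within 60 bases of it. The 96 matches to the NF-Y box had a median position of -67.5, and 91 lay upstream of the start. A match describes the letters and shows neither binding nor use of the site.

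**Figure D1:**
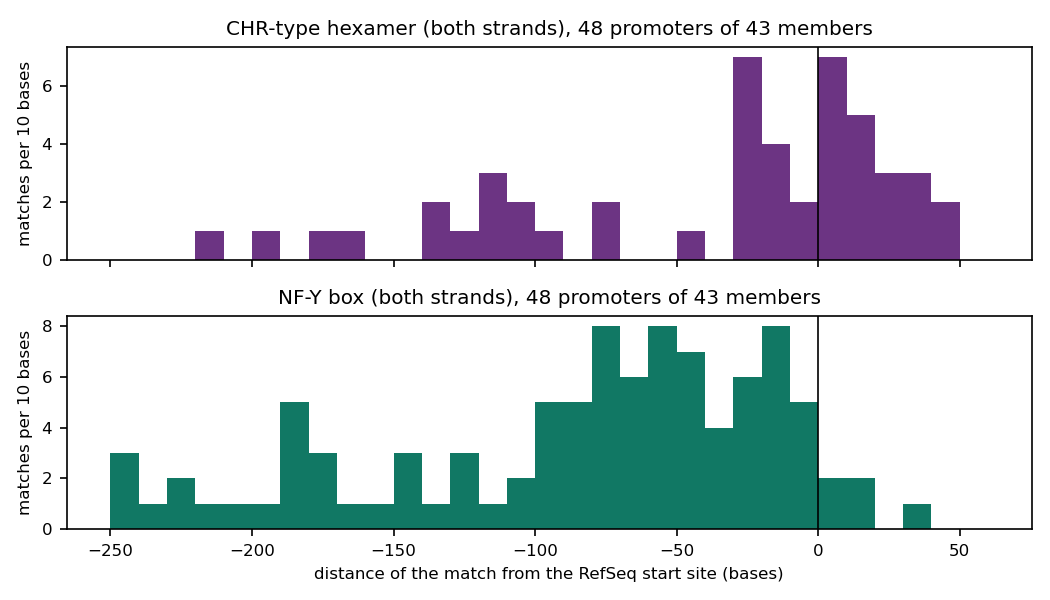
Positions of the CHR-type hexamer (top) and of the NF-Y box (bottom) on either strand in the 48 promoters of 43 G2 and mitosis genes; the x axis is the distance from the RefSeq start site in bases and the y axis counts matches in bins of 10 bases. Hexamer matches gather around the start site (median -18), and 91 of 96 matches to the box lie upstream of it (median -67.5).

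Across all epithelial cells most of the 50 genes were lower after ovariectomy. Summed over the list, the level was 8898 and 6465 CPM in WT1 and WT2 and 1457 and 2110 CPM in OVX1 and OVX2, which is 7682 ± 1720 against 1783 ± 462 CPM (SD, n = 2 libraries), 4.31-fold lower in OVX. Both OVX sums were under both WT sums, and the exact two-sided permutation test gave p = 0.33, the smallest that 2 libraries against 2 can give. In the gene-by-gene fit (edgeR quasi-likelihood test, Benjamini-Hochberg over 11415 genes, threshold 0.05), 33 of 50 genes fell, where 2.5% of all genes tested fell. Their median log2 fold change was -3.01, where that of all genes was 0.00. In 45 of the 50 both OVX libraries lay under both WT libraries, as did 22.4% of all genes with a UMI in both WT libraries. Of 61 other G2 and mitosis genes tested 29 fell, and of 48 S phase genes 12 fell. In these sums, fewer dividing cells and less RNA in each of them cannot be told apart. Without OVX1, the shallowest library, 19 of 50 fell.

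Among 11 genes of mitotic entry 7 fell, with a median log2 fold change of -3.03. Cdk1, the kinase that drives the step (chr10:69335146-69352938 on GRCm38), stood at 108 CPM in WT1 and 129 in WT2, and at 3.81 in OVX1 and 13.05 in OVX2. Both OVX libraries were far under both WT libraries, and the log2 fold change was -3.76 ± 0.58 (SE; edgeR adjusted p = 0.0124). Ccnb1, cyclin B1, its main partner, was at 76.6 and 94.6 CPM in WT and at 2.54 and 5.59 in OVX (log2 fold change -4.34 ± 0.53), with the reservation that 31.0% of the 50-base words in its last 500 bases also occur in other genes, its pseudogene Ccnb1-ps among them. Ccnb2, cyclin B2, was at 177 and 119 CPM against 7.63 and 11.8 (-3.97 ± 0.51). Pbk, a mitotic kinase, had the most negative change of these 11, from 90.4 and 124 CPM to 6.36 and 4.35 (-4.45 ± 0.50, edgeR adjusted p = 0.00429).

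Of the small Cdk-binding subunits Cks1b passed the test and Cks2 did not, though the log2 fold change of Cks2, -2.30 ± 0.64, was close to that of Cks1b. A difference between these genes was not tested. Cks1b was at 153 and 217 CPM in WT and 30.5 and 32.3 in OVX (-2.64 ± 0.42, edgeR adjusted p = 0.0142), though it did not pass without OVX1 (adjusted p = 0.157) or without OVX2 (0.131). Cks2 was at 31.8 CPM in WT1 and 108 in WT2 against 11.4 and 17.4 in OVX, and did not pass (edgeR adjusted p = 0.0916). It did pass without WT1 (edgeR adjusted p = 1.74e-07), without the filter on low counts (0.000549) and with DESeq2 (0.0153). Its WT libraries stood far apart, and 39.9% of the words in its last 500 bases also occur in other genes. G2e3, a G2/M-specific E3 ubiquitin ligase, was the exception of the group, at 69.2 and 58.7 CPM in WT and 53.4 and 87.0 in OVX, with overlapping groups (0.05 ± 0.43, edgeR adjusted p = 0.963). Its sign turned without WT2 (-0.14) and without OVX2 (-0.48). Aurka and Nek2, both centrosome kinases, fell as well, and Gtse1 and the phosphatase Cdc25c did not pass the test.

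All 5 genes of the spindle checkpoint and of protein destruction fell, with a median log2 fold change of -4.54. Ube2c, the ubiquitin-conjugating enzyme that works with the anaphase-promoting complex, had the most negative change of all 50 genes. It was at 188 and 264 CPM in the WT libraries and at 1.27 and 9.94 CPM in the OVX libraries, from 1 and 16 UMIs (-5.20 ± 0.71, edgeR adjusted p = 0.00943). Cdc20, which recruits substrates to that complex, was at 200 and 107 CPM against 5.08 and 13.7 (-4.02 ± 0.61, edgeR adjusted p = 0.0123). Ttk, a checkpoint kinase, changed least of the 5, from 53.9 and 32.7 CPM to 3.81 and 4.97 (-3.35 ± 0.54). The checkpoint kinase Bub1 had 465 and 79 UMIs in WT and 0 and 7 in OVX, and Cdca3, an adaptor for protein destruction, had 359 and 214 against 2 and 5. The last 1000 bases of Ube2c overlap Tnnc2 and those of Cdc20 overlap Elovl1, and the strand setting of the counting was not given in the sources used here.

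At the kinetochore and centromere 3 of 6 genes fell, with a median of -2.81. Ndc80, part of the complex that holds microtubules, went from 99.5 and 63.9 CPM to 6.36 and 8.70 (-3.49 ± 0.50, edgeR adjusted p = 0.0105). Cenpa, the histone H3 variant of centromeres, went from 99.3 and 150 CPM to 17.8 and 8.70 (-3.40 ± 0.51, edgeR adjusted p = 0.0118), and Cenpf from 448 and 170 to 43.2 and 66.5 (-2.59 ± 0.58, edgeR adjusted p = 0.0465). Cenpa did not pass without OVX2 (edgeR adjusted p = 0.0818), and Cenpf without OVX1 (0.267), without OVX2 (0.0873), with at most 10% mitochondrial UMIs (0.0879) or with the replicate number as a block (0.0560). Hjurp, the chaperone that loads Cenpa, did not share their pattern. It was at 154 and 60.8 CPM in WT and 64.8 and 157 in OVX, so the groups overlapped fully (-0.04 ± 0.60, edgeR adjusted p = 0.978), and its sign turned without WT1 (0.82) and without OVX1 (0.46). Nuf2 and Cenpe did not pass.

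The 4 genes of the chromosomal passenger complex and Repo-Man all fell, with a median of -3.88. Birc5 (survivin), a subunit of the complex, was at 188 and 241 CPM in WT and 8.90 and 14.3 in OVX (-4.24 ± 0.49, edgeR adjusted p = 0.00462). Aurkb, its kinase, was scarcer, at 28.6 and 45.7 CPM against 2.54 and 2.49, from 2 and 4 UMIs (-3.94 ± 0.58, edgeR adjusted p = 0.0110). Cdca8 (borealin) was at 124 and 186 CPM against 8.90 and 13.7. Cdca2 (Repo-Man), which brings a phosphatase back to chromatin at mitotic exit, was at 50.4 and 29.6 CPM against 5.08 and 5.59 (-2.99 ± 0.53, edgeR adjusted p = 0.0205), but did not pass without OVX2 (0.0642).

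Genes of chromosome structure and chromatin held the 4 highest levels in WT, those of Mki67, Smc4, Top2a and Anp32e, and had the median change nearest to 0 of the 7 roles. Of these 7 genes 3 fell, with a median of -1.17. Mki67, the proliferation antigen that coats mitotic chromosomes, had the highest mean of all 50 in WT, at 801 and 296 CPM, against 53.4 and 94.4 in OVX (-2.98 ± 0.62, edgeR adjusted p = 0.0350). Top2a, which untangles sister chromatids, was at 588 and 435 CPM against 25.4 and 86.4 (-3.24 ± 0.64, edgeR adjusted p = 0.0294). Neither passed without OVX1 (edgeR adjusted p = 0.168 for Mki67 and 0.163 for Top2a). Smc4, the condensin ATPase, was at 705 and 368 CPM in WT and at 225 and 297 in OVX, with no overlap, and did not pass (-1.14 ± 0.48, edgeR adjusted p = 0.238).

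Anp32e, a histone chaperone, was at 514 and 365 CPM against 196 and 229, and Hmgb2 at 213 and 333 against 170 and 142. Tmpo, which encodes lamina-associated polypeptides, was at 414 and 155 CPM against 113 and 158, so that WT2 lay within the OVX range. None of these 3 passed (log2 fold changes of -1.15 ± 0.42, -0.91 ± 0.41 and -1.17 ± 0.55). Without WT2, the differences of Smc4 (edgeR adjusted p = 0.00620), Anp32e (0.0161) and Tmpo (0.00192) passed. Ncapd2, another condensin subunit, fell. Words of the last 500 bases are shared with other genes for 21.3% of Hmgb2 and 7.21% of Mki67.

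Of 12 spindle and motor genes 8 fell, with a median of -2.72. Kif11, the motor that pushes the spindle poles apart, had the most negative change, from 151 and 77.5 CPM to 2.54 and 9.94 (-4.13 ± 0.67, edgeR adjusted p = 0.0146). Nusap1 was at 193 and 290 CPM against 17.8 and 24.9 (-3.56 ± 0.47, edgeR adjusted p = 0.00818). Tpx2, an activator of Aurora A and a spindle assembly factor, was at 191 and 154 CPM against 12.7 and 23.6 (-3.29 ± 0.49, edgeR adjusted p = 0.0115), and missed the threshold without OVX1 (0.0799). Ckap5 was the least changed, at 178 and 106 CPM in WT and 91.5 and 112 in OVX (-0.58 ± 0.44, edgeR adjusted p = 0.517), with WT2 inside the OVX range. Kif2c, Tacc3, Ckap2l, Dlgap5 and Hmmr also fell, while Kif20b, Ckap2 and Psrc1 did not pass.

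For cytokinesis 3 of 5 genes fell, with a median of -3.31. Prc1, which bundles the central spindle, was at 417 and 393 CPM in WT and 34.3 and 49.7 in OVX (-3.35 ± 0.45, edgeR adjusted p = 0.00875; 0.0741 without OVX1). Prc1 stood at nearly the same level in both WT libraries. Ect2, the exchange factor that switches on the contractile ring, had 355 and 77 UMIs in WT and 0 and 10 in OVX (-3.80 ± 0.80, edgeR adjusted p = 0.0357). Anln, a scaffold of the ring, fell too. Gas2l3 was at 19.1 and 16.6 CPM against 10.2 and 9.32, with no overlap, and did not pass (-0.99 ± 0.47, edgeR adjusted p = 0.295).

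**Figure D2:**
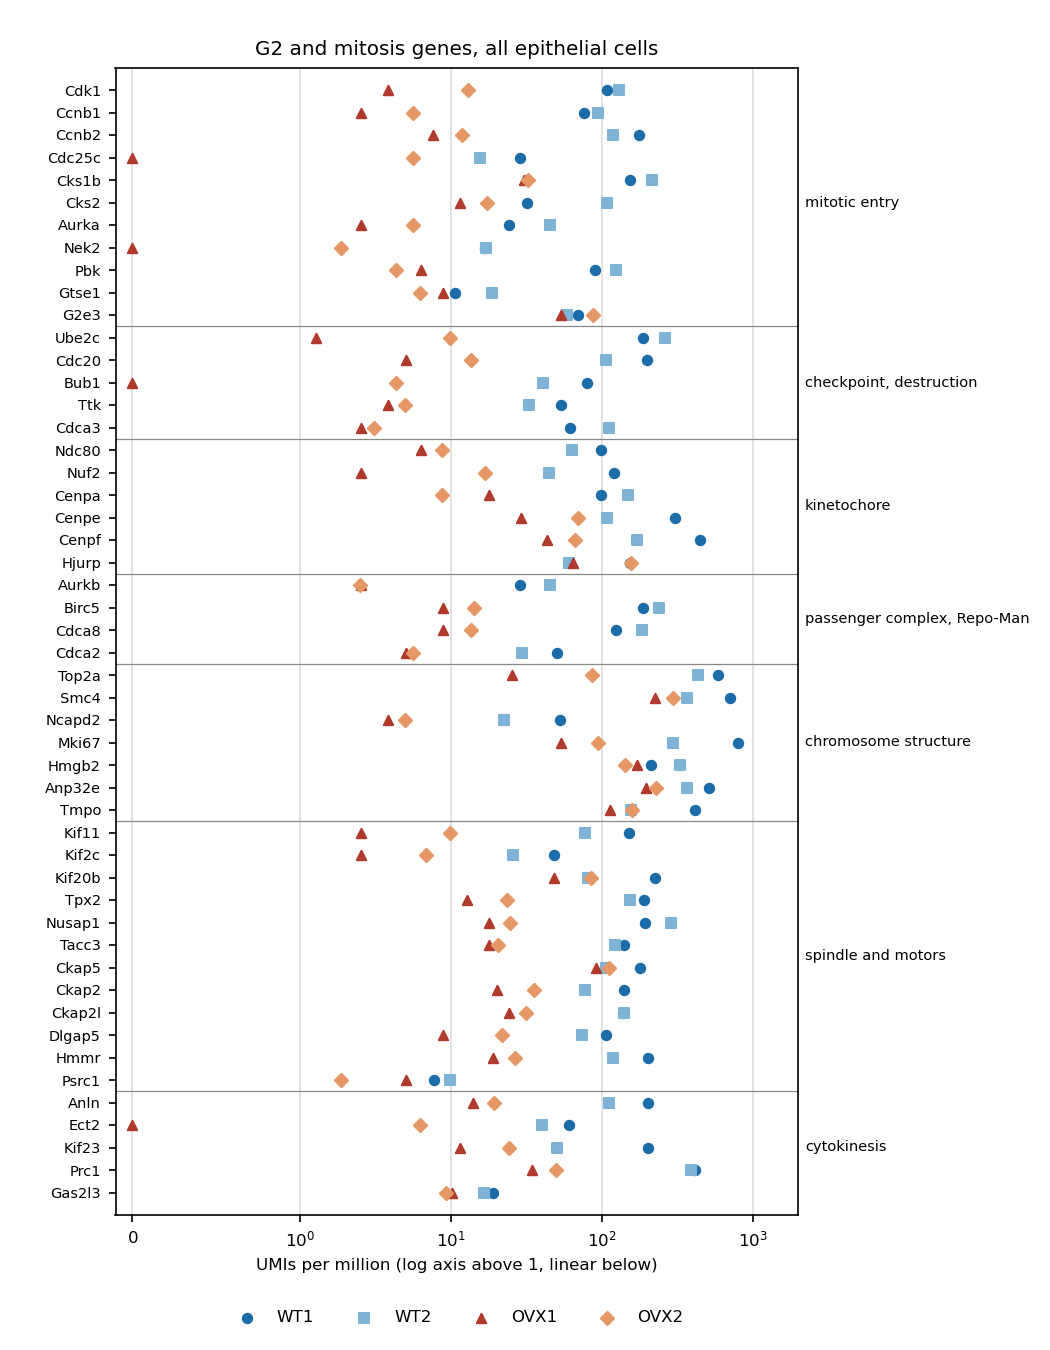
Level of each of the 50 G2 and mitosis genes in all epithelial cells, in CPM on an axis that is logarithmic above 1 and linear below it, with 1 point per library and genes grouped by role. For 45 genes both OVX points (triangles and diamonds) lie left of both WT points (circles and squares); Hjurp and G2e3 overlap.

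The number of dividing cells was examined next, in clusters made in the space of 114 cell cycle genes that are not on the list. Cells of 2 clusters carried most cycling markers. The cluster led by Kif20a, Aspm and Plk1, genes of mitosis, held 479 and 402 cells in WT1 and WT2 and 12 and 20 cells in OVX1 and OVX2. As a share of epithelial cells, this was 16.2% (95% exact binomial interval 14.8 to 17.5) and 20.3% (18.6 to 22.2) in WT, and 0.775% (0.401 to 1.35) and 1.07% (0.655 to 1.65) in OVX. The cluster led by Clspn, Dtl and E2f8, genes of S phase, held 21.8% and 9.76% of cells in WT and 0.969% and 3.85% in OVX. The split between these 2 clusters did not hold in WT2 at the higher clustering resolution tried. Cycling cells classed as mitotic there numbered 457 and 15 in WT1 and WT2, and 3 and 8 in OVX1 and OVX2. Those classed as S phase numbered 715, 607, 33 and 100. In the main run both clusters together held 34.0 ± 5.55% of WT cells and 3.33 ± 2.25% of OVX cells (SD, n = 2), a 10.2-fold difference with no overlap (exact permutation p = 0.33, the smallest possible).

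The size of that ratio depends on how cycling cells are chosen. It was 19.5 without OVX2 and 5.06 with cells of at most 10% mitochondrial UMIs. It was 2.04 when any cell with at least 3 UMIs of other cycle genes, after thinning to 400 UMIs, was called cycling. Without the 2% of cells with most UMIs it was 29.5, but only the cycling cluster with the highest Plk1 level was then in the cycling class. S phase cells in other clusters counted as outside in that run. In the main run the Kif20a cluster alone gave a ratio of 19.8. Clusters with fewer cycling markers were kept outside: one led by Gins2, Mcm4 and Mcm6, genes of replication licensing, held 14.0%, 10.6%, 6.27% and 8.57% of cells in WT1, WT2, OVX1 and OVX2, and one led by H2afz, Stmn1 and Tubb4b held 3.03%, 10.9%, 4.85% and 5.09%.

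Counted by the 50 genes themselves, cells with at least 3 of their UMIs after thinning every cell to 400 UMIs were 31.0% and 27.2% of epithelial cells in WT and 2.53% and 3.94% in OVX. The thinning left out 42 cells of WT2, 640 of OVX1 and 39 of OVX2; unthinned, the shares were 65.5%, 39.6%, 4.26% and 14.9%. Macrophage-like cells gave 46.2%, 12.5%, 12.5% and 9.52% at the same depth, from 13, 8, 8 and 21 cells with median depths of 1125, 529, 414 and 734 UMIs before thinning. Among fibroblast-like cells none of 7 in OVX1 and none of 14 in OVX2 reached 3 UMIs, which allows shares of up to 42.9% and 21.4%. At this number of other cells, a background in the OVX shares was not measurable.

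**Figure D3:**
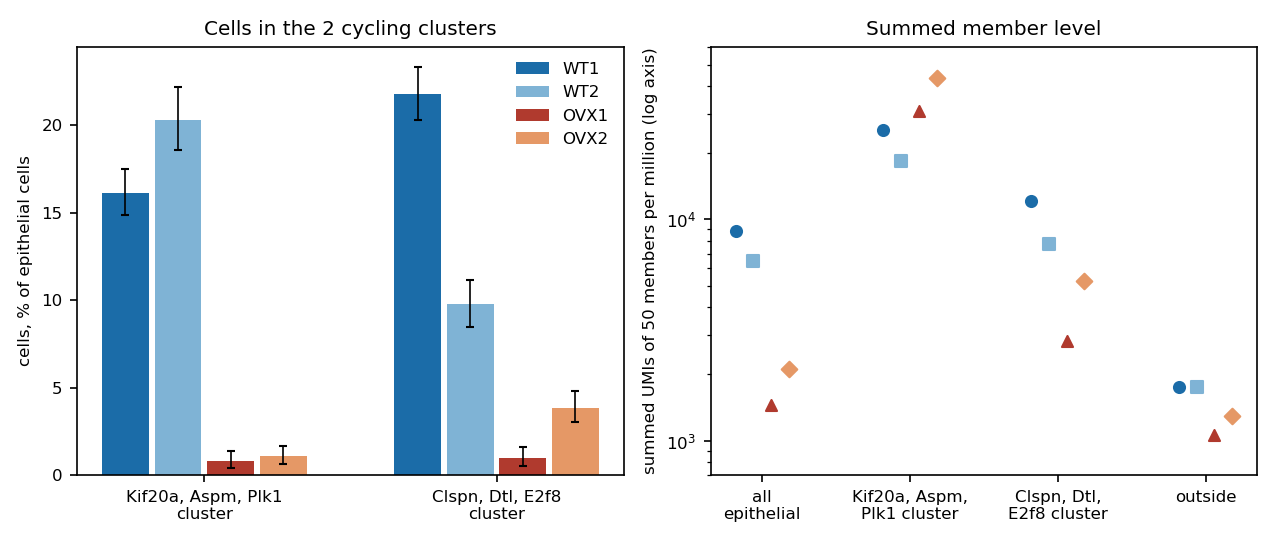
Left, cells of the 2 cycling clusters as a percentage of epithelial cells in each library, with 95% exact binomial intervals; right, summed level of the 50 genes in CPM (log axis) in all epithelial cells, in each cycling cluster and outside both. Each cluster holds at least 9.76% of WT cells and at most 3.85% of OVX cells. The summed level in the Kif20a, Aspm, Plk1 cluster is not lower in OVX, and that in the Clspn, Dtl, E2f8 cluster is lower.

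Within WT cells the 50 genes were not spread evenly over the cycle. The Kif20a cluster supplied 54.6% of their UMIs in WT1 and 68.3% in WT2, the Clspn cluster 34.5% and 14.5%, and the cells outside both 10.9% and 17.2%, although the outside cells held 55.5% and 63.7% of all UMIs. All 50 genes were higher in the Kif20a cluster than outside in both WT libraries, and 49 were higher there than in the Clspn cluster, the exception being Pbk, which in WT1 was at 170 CPM against 217. These clusters were made from genes of the same phases, so the levels are a description with no test. They rest on the split of the main run, which did not hold in WT2 at the higher clustering resolution.

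The ratio of the Kif20a cluster to the outside cells, from the means of the 2 WT libraries, had a median of 21.6 over the 50 genes. It was highest for Kif2c, a microtubule-removing kinesin, at 73.3 (128 against 1.75 CPM), followed by Cdk1 at 41.2, Ube2c at 40.4 and Nek2 at 39.8. It was lowest for Hjurp at 2.14, Anp32e at 2.68, Tmpo at 2.69 and Ckap5 at 4.67, which also held the largest shares of their UMIs outside cycling cells, from 26.5% (Ckap5) to 39.5% (Hjurp) in WT1. Against the Clspn cluster, the ratio had a median of 2.37. It was highest for Cenpa, at 9.49 (433 against 45.6 CPM), and lowest for Tmpo, at 1.05 (454 against 434). Top2a, at 1.65, and Mki67, at 1.79, had ratios under that median, and Cenpf, at 4.76, and Ube2c, at 4.38, above it.

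Inside cycling cells no difference between OVX and WT passed the test. Over both cycling clusters the summed level was 17817 and 14743 CPM in WT and 15400 and 13312 in OVX (16280 ± 2173 against 14356 ± 1476 CPM, exact permutation p = 0.667). The edgeR test called 0 of 49 genes lower, where 0.268% of all genes were called lower, and DESeq2 also called 0; at an unadjusted p under 0.05 edgeR gave 5 lower, and the median log2 fold change was -0.47 against -0.19 for all genes. The OVX sums rest on 27 and 92 cells with 338 and 1456 UMIs of the 50 genes. Mki67 differed by -0.15 ± 0.61 and Hmgb2 by 0.48 ± 0.61 on the log2 scale. Ube2c had the most negative value, -2.29 ± 0.70 (edgeR adjusted p = 0.149). With cycling cells taken as those with 3 UMIs of other cycle genes after thinning, 15 of 50 genes passed as lower. Without WT1 or without WT2 only 44 genes could be tested, with median log2 fold changes of -0.35 and -0.58.

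In the Kif20a cluster alone the summed level was higher in the OVX libraries, at 30847 and 43299 CPM, than in the WT libraries, at 25366 and 18288 (37073 ± 8805 against 21827 ± 5005, exact permutation p = 0.33, the smallest possible). That comes from 304 and 1000 UMIs in 12 and 20 OVX cells. The Kif20a cluster was that of the main run, and its genes were not tested at the higher clustering resolution. Hmgb2 was at 534 and 831 CPM in WT and 2131 and 2382 in OVX, and Cenpf at 1694 and 532 against 2740 and 3291. Ube2c went the other way, at 729 and 908 against 101 and 520. With edgeR 0 of 50 genes passed in either direction, where 0.17% of genes were called lower and 0.0424% higher, and with DESeq2 0 were lower. At an unadjusted p under 0.05, edgeR had 1 lower and 4 higher, and the median log2 fold change was 0.29, where that of all genes was -0.50. Without WT1 only 31 of the 50 could be tested, and their median log2 fold change was 0.92. In the Clspn cluster the sums were lower in the OVX libraries, at 2812 and 5285 CPM, than in the WT libraries, at 12104 and 7713. That is 2.45-fold lower (exact permutation p = 0.33, the smallest possible), from 34 and 456 UMIs in 15 and 72 OVX cells. No gene-by-gene test was run for the Clspn cluster.

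Outside the cycling clusters the summed level of the genes was lower in OVX, and 10 of the 32 genes that could be tested fell, where 2.12% of all genes fell. The sum was 1750 and 1742 CPM in WT and 1057 and 1293 in OVX, 1.49-fold lower (exact permutation p = 0.33, the smallest possible). Over the 32 genes with enough UMIs for the test, the median log2 fold change was -1.82, against -0.0048 for all genes. Because a gene could pass the filter on its WT counts alone, the 32 do not speak for the other 18. Of all 50, 37 had both OVX libraries under both WT libraries, as had 20.4% of genes with a UMI in both WT libraries. G2e3, Kif20b, Ckap5 and Gas2l3 had both above, and the share of all genes with both above was not computed. Among other genes of G2 and mitosis 2 of 37 fell, and among S phase genes 2 of 37.

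Of the 10 genes that fell there, 5 had at most 3 UMIs left in OVX. Ube2c had 36 and 36 UMIs in WT and 0 and 0 in OVX, at least 12.2-fold lower against a floor of 3 counts over the group. Ccnb2 went from 22.3 and 35.1 CPM to 1.31 and 0.667, from 1 UMI in each OVX library, a pooled ratio of 29.3 (95% counting interval 7.92 to 245). Cdca3 had 34 and 32 UMIs against 0 and 1 (ratio 33.6, 5.82 to 1347), Nusap1 32 and 46 against 0 and 2 (19.9, 5.31 to 167), and Birc5 42 and 60 against 0 and 3 (17.3, 5.76 to 85.3).

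The others that fell kept more UMIs over both OVX libraries: 50 for Mki67, 28 for Cenpf, 8 for Cdc20, 8 for Tpx2 and 6 for Anln. Cdc20 went from 20.8 and 30.2 CPM to 2.62 and 4.00 (-2.96 ± 0.57, edgeR adjusted p = 0.0268). Mki67 went from 120 and 80.8 to 17.0 and 24.7 (-2.39 ± 0.46, edgeR adjusted p = 0.0275), Cenpf from 54.3 and 47.4 to 9.15 and 14.0 (-2.23 ± 0.46, 0.0342), Tpx2 from 23.3 and 30.2 to 1.31 and 4.67 (-3.07 ± 0.62, 0.0319) and Anln from 18.9 and 17.1 to 3.92 and 2.0 (-2.83 ± 0.60, 0.0374). No OVX library of these genes reached a WT library. These calls changed with single libraries: without OVX1 the edgeR adjusted p was 0.0847 for Cdc20, 0.245 for Mki67, 0.289 for Cenpf, 0.103 for Tpx2 and 0.0671 for Anln, without OVX2 0.0928 for Cdc20, 0.117 for Mki67, 0.156 for Cenpf and 0.417 for Anln, and without WT1 0.0519 for Anln. Other settings ended calls as well: with at most 10% mitochondrial UMIs the edgeR adjusted p was 0.0599 for Cenpf and 0.0699 for Tpx2, at clustering resolution 1.2 it was 0.0505 for Cenpf, and without the 2% of cells with most UMIs 0.0516 for Mki67. In that last run S phase cells in other clusters counted as outside. Of genes too scarce to test, Ccnb1 had 42 UMIs in WT and none in OVX, at least 7.13-fold lower, and Bub1, Aurkb, Aurka and Nek2 were likewise without a UMI in either OVX library.

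Other members were not lower outside the cycling clusters. G2e3 was at 27.3 and 24.5 CPM in WT and at 51.0 and 78.7 in OVX, both OVX libraries above both WT libraries, without passing (1.19 ± 0.43, edgeR adjusted p = 0.18). Hmgb2, at 47.1 and 98.0 against 143 and 97.3 CPM, had a log2 fold change of 0.59 ± 0.46, and Smc4, at 204 and 153 against 194 and 231, one of 0.11 ± 0.40. Ckap5, at 85.0 and 57.1 against 90.2 and 103, differed by 0.29 ± 0.41 and Hjurp, at 110 and 44.9 against 66.7 and 150, by 0.34 ± 0.58. The sign turned without WT2 for Smc4 (-0.15), Ckap5 (-0.02) and Hjurp (-0.20), and without OVX2 for Smc4 (-0.09) and Hjurp (-0.44). Tmpo, at 242 and 95.5 against 110 and 146 CPM, differed by -0.55 ± 0.52, with the sign turned without WT1 (0.32).

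The UMIs of the 50 genes were divided differently in the 2 groups. Outside cells held 70.5% and 57.1% of them in OVX1 and OVX2, against 10.9% and 17.2% in WT. The same cells held 97.2% and 93.2% of all UMIs in OVX and 55.5% and 63.7% in WT, so the share of the 50 genes was under that of all UMIs in every library. Hjurp, Anp32e, Ckap5, Tmpo and G2e3, chosen after their values were seen, had 84.3% to 100% of their OVX UMIs outside the cycling clusters, and Top2a had 15% and 18.0%. Fibroblast-like cells, a stromal type, gave a summed level of 451 and 1063 CPM in the OVX libraries, from 2 and 11 UMIs, next to 1057 and 1293 CPM in the OVX outside cells; a part of free RNA was not tested.

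**Figure D4:**
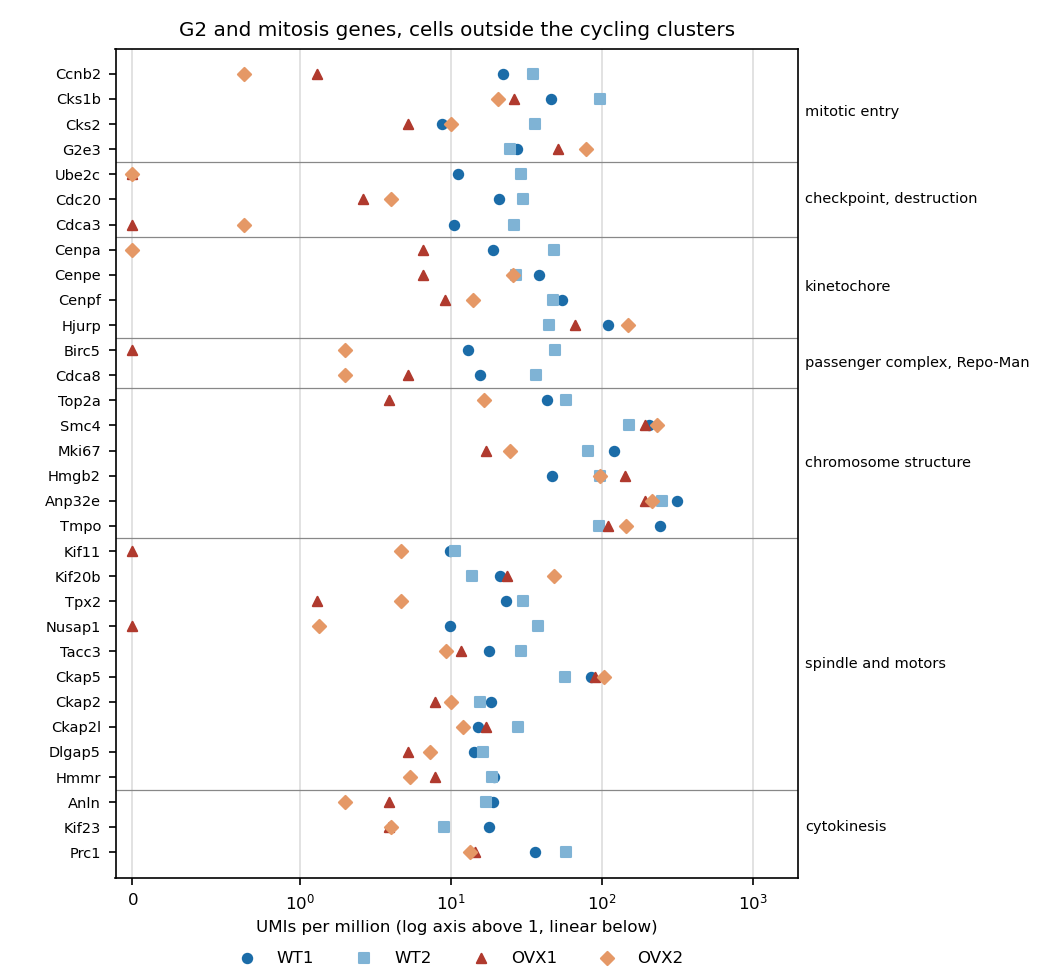
Level of the 32 G2 and mitosis genes with enough UMIs to be tested in epithelial cells outside the 2 cycling clusters, in CPM (log axis above 1, linear below), with 1 point per library. Ube2c is at 0 in both OVX libraries and Ccnb2 under 1.5, while Smc4, Anp32e, Hjurp and Ckap5 stand between 44.9 and 317 in every library.

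The effect of ovariectomy inside and outside cycling cells was then compared in 1 model, with the library as a block. Both classes of cells were chosen by genes of the same phases as the 50. Part of a difference between the classes can come from that choice, which was not tested. For 7 of 50 genes the effect in cycling cells was above that outside (edgeR, where 0.173% of all genes were called so and 0.182% the opposite way): Ccnb2, Cenpa, Cenpf, Top2a, Mki67, Tpx2 and Nusap1. Mki67, for example, differed between OVX and WT by -2.39 outside and by -0.15 in cycling cells, and the difference was 1.98 ± 0.30 on the log2 scale (edgeR adjusted p = 1.29e-07). None of the 7 passed without WT2, and DESeq2 called 2. With cycling cells chosen by 3 thinned UMIs, 1 gene was above and 6 were below.

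Across the named layers of the WT epithelium the genes were higher in basal-like than in suprabasal-like cells. Layers were called from keratin, adhesion and envelope markers in each library, in clusters made without genes that follow the cell cycle. A cluster led by Krt15, which had 1 of 12 basal markers raised and so stayed unnamed, had the highest summed levels, 15497 and 10627 CPM in WT1 and WT2. It also had 2 of 10 luminal markers raised in each library, Wfdc2 and Epcam, and 17 and 16 of 20 cycling markers, none of them a member. Cell cycle genes such as Tk1 were among its leading genes, although genes that followed a cell cycle score had been left out of the clustering. Basal-like clusters were at 9242 and 7060 CPM and suprabasal-like clusters at 4026 and 3001. The order was the same in both libraries. The share of cells in the Kif20a cluster of the main run had the same order: 24.9% and 31.7% of Krt15-led cells, 16.6% and 22.3% of basal-like cells, and 8.09% and 8.52% of suprabasal-like cells. For WT2 these shares depend on the clustering resolution.

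Suprabasal-like cells were lower than basal-like cells for 47 of 50 genes (edgeR with the library as a block, where 11.3% of all genes were lower and 10.3% higher), with a median log2 difference of -1.18 against 0.01 for all genes. By library, 49 of 50 were lower in WT1 and 50 of 50 in WT2, without a test and without the share of all genes, which was not computed by library. Among other genes of G2 and mitosis 48 of 59 were lower, and of the S phase genes 44 of 48. The largest differences were those of Anln, which fell from 248 and 126 CPM on the basal side to 63.0 and 48.8 on the suprabasal side (-1.77 ± 0.13, edgeR adjusted p = 6.84e-11), and Ndc80, at 111 and 73.0 against 31.0 and 21.5 (-1.73 ± 0.17). Aurkb (-1.72 ± 0.28), Ube2c (-1.66 ± 0.11, at 227 and 355 against 69.5 and 99.0 CPM) and Bub1 (-1.65 ± 0.20) came next.

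Some genes differed little between the layers. Hjurp was at 129 and 51.7 CPM on the basal side, at 141 and 48.8 on the suprabasal side, and did not pass (0.19 ± 0.12, edgeR adjusted p = 0.307); with layers called by marker UMIs the value was -0.16. Anp32e, at 538 and 340 against 368 and 298 CPM, was lower by -0.36 ± 0.08, G2e3 by -0.58 ± 0.17, Ckap5 by -0.66 ± 0.12 and Cks1b by -0.77 ± 0.11. DESeq2 did not call Anp32e (adjusted p = 0.437), G2e3 (0.752) or Ckap5 (0.159), and called 34 genes in all. G2e3 also missed the threshold with at most 10% mitochondrial UMIs (edgeR adjusted p = 0.0859) and at clustering resolution 1.2 (0.0518). Against basal-like cells, the Krt15-led cluster was higher for 50 genes in WT1, by a median log2 difference of 0.84, and for 49 in WT2, by 0.62. No test of this contrast was run, and the share of all genes that were higher there was not computed. Top2a was at 1088 and 791 CPM there, against 605 and 463 in basal-like and 228 and 162 in suprabasal-like cells.

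**Figure D5:**
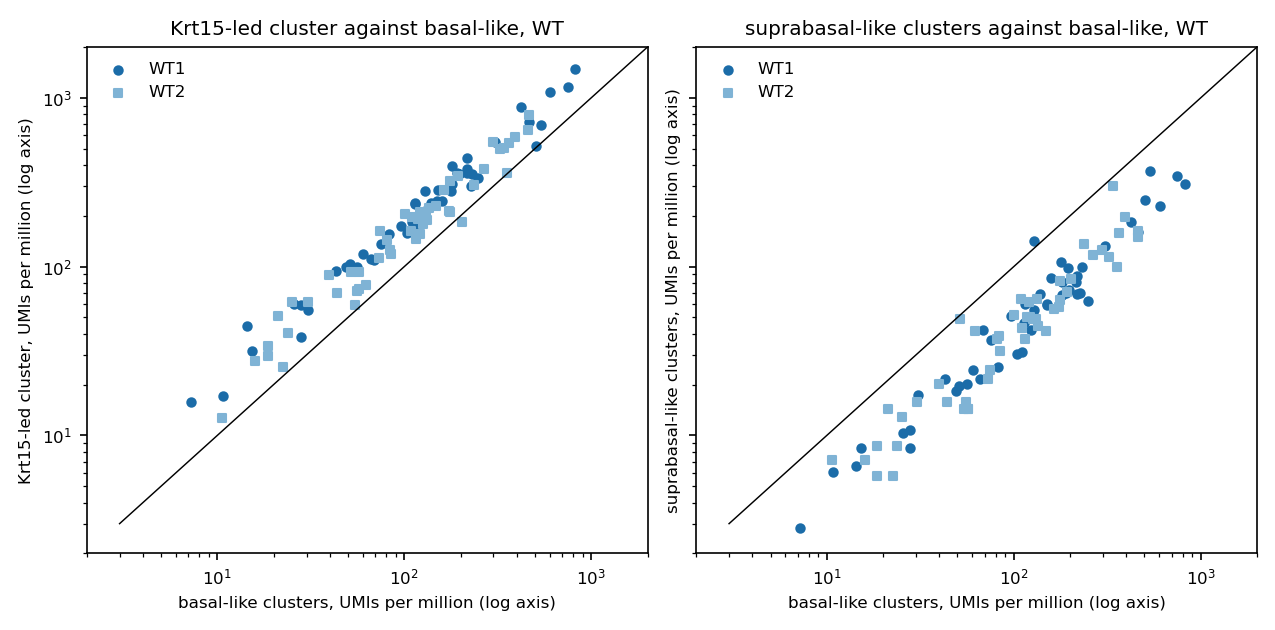
Level of each of the 50 genes in the Krt15-led cluster (left) and in suprabasal-like clusters (right) against its level in basal-like clusters, in CPM on log axes, for WT1 (circles) and WT2 (squares); the line marks equal levels. Points lie above the line on the left, but for 1 in WT2, and below it on the right, but for Hjurp in WT1.

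Within basal-like cells the genes were likewise lower in OVX. The summed level was 9242 and 7060 CPM in WT and 1107 and 1513 in OVX, 8151 ± 1542 against 1310 ± 287 CPM (SD, n = 2), 6.22-fold lower (exact permutation p = 0.33, the smallest possible). With edgeR 37 of 48 genes tested fell, where 3.31% of all genes fell, and the median log2 fold change was -4.16, or -4.12 with genes at 0 in OVX set at their bound. Pbk had no UMI in OVX basal-like cells and was at least 31.4-fold lower, and Cdca3 and Kif2c, also without a UMI, at least 21.0-fold and 10.6-fold lower. Cdk1 was at 117 and 149 CPM against 0 and 6.44 (-4.89 ± 0.74, edgeR adjusted p = 0.00279), Top2a at 605 and 463 against 13.6 and 38.6 (-4.26 ± 0.60, 0.00172), Mki67 at 823 and 297 against 18.1 and 43.5 (-4.12 ± 0.67, 0.00385) and Prc1 at 462 and 462 against 22.6 and 33.8 (-4.02 ± 0.54, 0.00128). Smc4, at 749 and 391 against 235 and 314 CPM (-1.10 ± 0.50, edgeR adjusted p = 0.241), and Hmgb2, at 230 and 363 against 131 and 122 (-1.30 ± 0.48, 0.151), did not pass. Smc4 passed without WT2 (edgeR adjusted p = 0.0212) and Hmgb2 without WT1 (0.0111).

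Most cycling cells of the OVX libraries were not among these basal-like cells. Of the 12 and 20 OVX cells in the Kif20a cluster, 11 and 18 lay in layer clusters that stayed unnamed, 16 of those of OVX2 in a cluster led by Mt2, Smc2 and Fabp5, and 1 in each library was basal-like. In WT the basal-like clusters held 40.7% and 41.0% of Kif20a cluster cells. The unnamed OVX clusters were at a summed level of 2047 and 3346 CPM and the luminal-like clusters at 922 and 1440. The basal result therefore compares cells named basal-like and leaves out 700 and 686 OVX cells. With cells of at most 10% mitochondrial UMIs 19 genes fell, with a median log2 fold change of -2.37. With layers called by marker UMIs 33 fell, with a median of -2.98. That call put 2795 of 2966 epithelial cells of WT1 and 1666 of 1978 of WT2 in the basal class. In OVX1 it put 1295 of 1548 there and in OVX2 1716 of 1868. It thus covers most of the epithelium and cannot check a result about the basal layer alone.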

How the data were processed

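Drop-seq libraries of mouse vaginal epithelium, 2 WT and 2 OVX, were used as UMI counts per gene and cell, deposited by the authors as raw whole numbers; per the submitters' processing notes Seurat 2 and mm10 were used, and the aligner and counter were not given in the sources used here. Barcodes with fewer than 200 genes or over 20% mitochondrial UMIs were dropped. Doublets were not removed and no caller was run. Cells were clustered with scanpy 1.11.5 and leidenalg 0.10.2 in Python 3.11.15 (2000 variable genes, 30 principal components, 15 neighbours, Leiden resolution 0.8). Layers were clustered in each library without genes that followed a cell cycle score (correlation above 0.1), and cycling cells in 10 principal components of 114 cycle genes that are not members. A marker counted as raised at 1.5-fold over the other cells and in at least 5% of cells; a layer or cell type name needed 3 markers and a cycling cluster 10 of 20. These spaces and thresholds were set after clusters had been seen, and members and gene lists were chosen with earlier results of these data known.

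Counts were summed per library and class and tested with edgeR 4.0.16 in R 4.3.3 (quasi-likelihood test, TMM scaling, filterByExpr, Benjamini-Hochberg threshold 0.05 over all genes); the layer and cycling-against-outside tests had the library as a block. A check of the test on simulated data used a fixed spread between libraries that was not taken from these data, so it does not vouch for the calls here. DESeq2 1.42.0, no filter, each library left out, stricter cell filters, resolution 1.2 and other ways of choosing cycling cells and layers were the alternatives. Values in every library are given for genes set by rule: 17 fixed genes, the 10 with the highest WT mean, the extremes of change in each role, and the 5 largest and smallest differences outside cycling cells and between layers. Intervals and floors (95%, 3 counts) cover counting error only. Positions are from GENCODE vM21 on GRCm38, promoters from RefSeq.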

Additional observations from a re-analysis of the deposited data

Results flagged for a closer look

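For 7 genes the effect of ovariectomy differed between the cycling clusters and the cells outside them, by the test of that difference itself (edgeR, library as a block, 10424 genes). The log2 effect in cycling clusters minus that outside was 3.79 ± 0.84 for Ccnb2 (edgeR adjusted p = 0.00387), 3.36 ± 0.68 for Cenpa (0.000843) and 3.84 ± 0.77 for Nusap1 (0.000841). It was 2.24 ± 0.35 for Cenpf (5.47e-07), 1.98 ± 0.30 for Mki67 (1.29e-07), 2.42 ± 0.57 for Tpx2 (0.0104) and 1.55 ± 0.37 for Top2a (0.0105). Ccnb2, Nusap1 and Cenpa rest on 2, 2 and 5 UMIs outside the cycling clusters in OVX. The number of such genes was 0 without WT2, 3 without OVX2 and 2 with DESeq2. With cycling cells chosen by thinned UMIs 1 gene was above and 6 were below, and the median difference over the 50 genes was -0.018, against 1.22 with clusters. The clusters were made from genes of the same phases as the 50, and the part of that choice in the difference was not tested.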

How the results depend on the processing

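The cause of each move below was not tested. In epithelial and basal-like cells no alternative run called a member higher in OVX. Without WT1 some were called higher in cycling cells and in the Kif20a cluster alone, but only 44 and 31 members could be tested there. Leaving out 1 library, the genes lower in OVX numbered 19 (without OVX1) to 42 in epithelial cells, 0 to 3 in cycling cells, 7 to 17 outside them and 25 to 41 in basal-like cells, the cycling-against-outside difference held for 0 (without WT2) to 6 genes, and the ratio of cycling shares ran from 6.91 to 19.5. Without a filter on low counts 23 genes were lower outside cycling cells. With at most 10% mitochondrial UMIs 19 were lower in basal-like cells, and the ratio of cycling shares was 5.06. That ratio was 29.5 without the 2% of cells with most UMIs, where only the cluster with the highest Plk1 level was in the cycling class. Cycling cells chosen by thinned UMIs gave a ratio of 2.04, 15 genes lower in cycling cells and a cycling-against-outside difference for 1 gene above and 6 below; DESeq2 gave 2 above. The ratio of summed levels stayed between 3.63 and 5.27. The replicate number as a block gave 35 genes in epithelial cells (Cenpf then missed the threshold), 13 outside, 37 in basal-like and 0 in cycling cells; the deviations of same-numbered libraries had r = -0.567 over 11415 genes, so same-numbered libraries did not deviate together, although they share the number of barcodes deposited (3000 for WT1 and OVX1, 2000 for WT2 and OVX2). The crossed pairing, added after seeing the data, gave 45, 21, 45 and 1 lower in epithelial, outside, basal-like and cycling cells, and 1 higher outside.

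Among genes followed by name in epithelial, outside and basal-like cells and between layers, signs turned only for differences that did not pass. Signs of single genes were not followed in the cycling clusters or in the cycling-against-outside test. Leaving out 1 library, the log2 difference in epithelial cells ran from -0.48 to 0.38 for G2e3 and from -0.96 to 0.82 for Hjurp, and outside cycling cells from -0.44 to 1.19 for Hjurp, -0.15 to 0.37 for Smc4, -0.019 to 0.65 for Ckap5 and -1.12 to 0.32 for Tmpo. G2e3 in epithelial cells was at -0.10 without the filter, and Hjurp at 0.049 with at most 10% mitochondrial UMIs. Smc4 outside was at -0.035 without the filter, -0.13 without the deepest cells and -0.0030 with thinned UMIs. Hjurp between layers was at -0.16 with layers from marker UMIs. Scaling by total counts moved the median of all genes to 0.13, with 48 of 50 members negative. Without the deepest cells OVX1 kept 9 cycling cells, so that no test of cycling cells was run there, and leaving out a library ends the layer test, which then has no residual degrees of freedom. The OVX cycling clusters held 27 and 92 cells.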
